A study of Andropogon gerardi with 32 samples.

Results

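The 35 probes described here were higher under altered than under ambient rainfall on nearly every array that measured them, in leaves of big bluestem (Andropogon gerardii). They were chosen out of 10447 probes by their own readout. For each array the difference between the altered and the ambient sample was taken on the log2 scale, and the array's median difference over all probes was subtracted. A probe was kept when at least 14 of 16 arrays gave a difference and when that difference was above 0 in all of them or in all but 1. Probes for the genes tua4 and hsp70-4 were to be left out, and 0 of the probes found carried either symbol. Of the 10447 probes, 2518 had enough differences to be considered, so the 35 are 1.39% of those. The share kept fell with the number of differences: 18 of 785 probes with 14 (2.29%), 13 of 839 with 15 (1.55%) and 4 of 894 with 16 (0.447%). The mirrored choice, below 0 in all or all but 1, gave 126 probes (5%).

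The study compared leaf RNA of plants under altered rainfall (16 samples) with leaf RNA of plants under ambient rainfall (16 samples). Each title carries a ramp number that occurs once in each group. The labels do not say how rainfall was altered, and they give no plant age, sampling time, genotype or dye. They call the source a plot for numbers 2 to 6 and a plant for numbers 7 to 19, and they do not say which samples of a group came from separate plants, so every p-value rests on sample-to-sample spread that may be technical.

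Big bluestem is a perennial C4 grass that dominates much of the North American tallgrass prairie. The timing of rain sets how often its upper roots meet dry soil. Grass leaves short of water close their stomata, lower photosynthesis and raise transcripts for protective proteins and for making the hormone abscisic acid. In bulk leaf RNA a higher signal cannot be split into more RNA per cell and more cells of a type.

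Arrays differed in quality, and this bears on which probes could be chosen. The columns of a ramp number lacked values at exactly the same spots for all 16 numbers, so they were read as the channels of 1 array. Spots with a value ran from 1833 (number 7) and 2323 (number 19) to 9530 (number 2). The channels of number 7 correlated at r = -0.31 over spots and those of number 9 at r = 0.05, against 0.20 to 0.76 on the other arrays. The leaf label was checked with Cab-m7, a chlorophyll a/b-binding protein gene. Its probe 4707 had a median level of 12.03 under altered and 12.60 under ambient rainfall, near the top of the range of mean levels of the 2518 probes (5.67 to 12.97). Its other probe, 3766, stood at only 6.34 and 6.42, with differences on 10 arrays. The probe of pgr5, a gene of cyclic electron flow in photosynthesis, stood at 9.19 under altered and 9.75 under ambient rainfall. Levels here and below are quantile-normalized log2 intensities. Symbols matched no marker of root, pollen, kernel or dividing cells, so those were not analysed here.

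Of the 35 probes, 2 carried a gene symbol and 33 were unnamed. Symbols were given for 251 of the 2518 probes (9.97%), against 5.71% of the 35. The symbols are those of maize genes, LOC541780 and LOC542211, and the annotation gives no function for either. Whether these spots read the big bluestem counterpart was not tested.

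LOC541780 (probe 4517) had levels of 6.07 at the lowest, 7.55 at the median and 9.04 at the highest over 14 altered samples. The 14 ambient samples gave 4.76, 6.04 and 7.32. The groups overlapped, yet 9 altered samples lay above every ambient one and 7 ambient samples lay below every altered one. The difference chosen on averaged 1.42 ± 1.10 log2 units (SD, n = 14 arrays), a 2.67-fold higher level, and it was above 0 in 13 of 14. The exception was number 8 at -1.14, while number 9 gave the largest difference, 3.60. The sign was thus shared by all other arrays, but the size ran from 0.53 (number 4) upwards.

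A further probe of LOC541780, 10215, did not meet the choice because only 9 arrays gave a difference. Its level was 5.63 to 7.44 in altered samples (median 6.15) and 2.96 to 6.52 in ambient samples (median 5.37), with 9 values in each group. It rose by 1.46 ± 0.42 log2 units (SE; limma, adjusted p = 0.026 over all probes tested) in a fit that does not pair the channels of an array. Within arrays the difference averaged 1.42 ± 2.14 (SD, n = 9 arrays) and was above 0 in 7 of 9. Over 24 alternative settings the change of probe 10215 ran from 1.06 to 1.96 and its adjusted p (limma) from 0.0097 to 0.15, and 16 settings passed. Numbers 3, 7, 8, 12, 13, 15 and 19 gave no difference for this probe. Leaving out any of these removed none of its values, so passing there adds little. The 8 settings that did not pass include both that pair the channels, the replicate block (limma, adjusted p = 0.078) and within-array loess (0.15). The others were median centring (0.11), no normalization (0.086), and the fits without number 2 (0.076), 6 (0.077), 11 (0.096) or 18 (0.054).

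LOC542211 (probe 1077) was among the smaller differences. Its level was 6.56, 7.33 and 8.20 (lowest, median and highest) over 14 altered samples, and 5.23, 6.28 and 7.64 over 14 ambient samples. The ranges overlapped, with 4 altered samples above every ambient one. The difference averaged 0.87 ± 0.63 (SD, n = 14 arrays), 1.82-fold, and only number 18 fell below 0, at -0.17. Its other probe, 312, differed by 0.20 ± 0.31 (SE; limma, adjusted p = 0.76), with 10 of 14 differences above 0, and passed in 0 of 25 alternative settings (adjusted p from 0.46 to 0.96). Both probes of this gene thus averaged above 0, but the difference of probe 312 was small (0.09 ± 1.75, SD over arrays) and was not called. Probe 10215 of LOC541780 was called in the main fit, but not in the fits that pair the channels of an array.

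**Figure D1:**
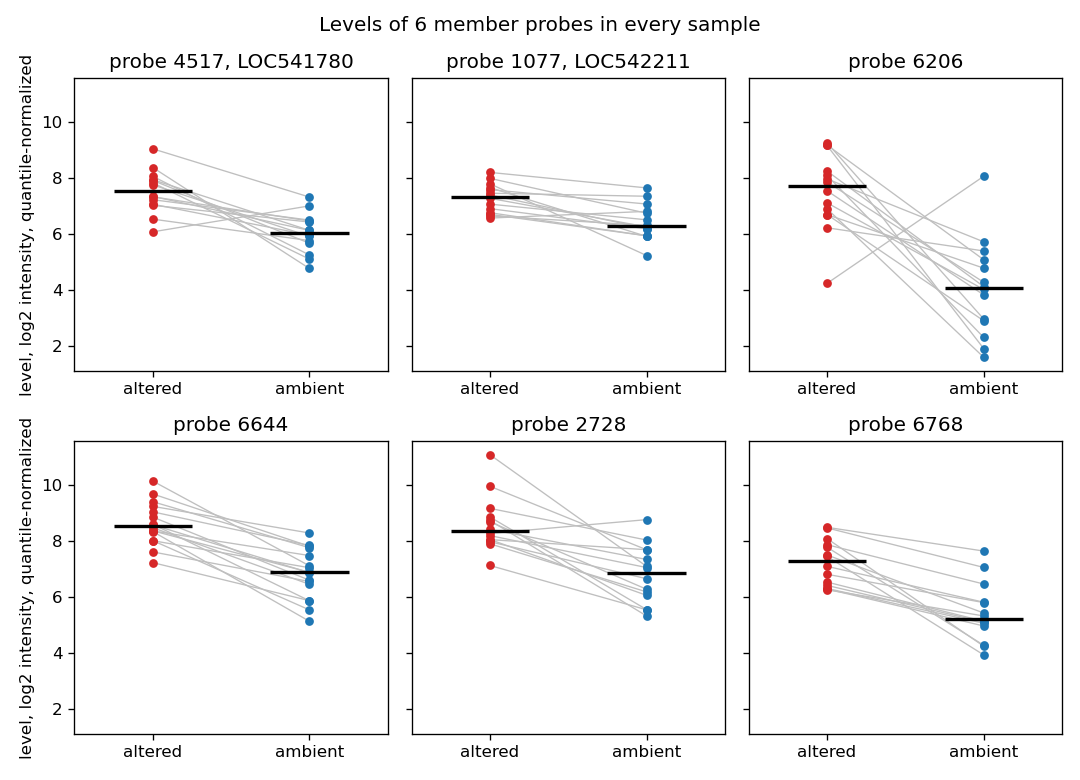
Quantile-normalized log2 intensity of 6 probes in every altered sample (red, left) and ambient sample (blue, right), with grey lines joining the samples of 1 array and black bars at the medians. Medians were higher under altered rainfall for all 6 probes, the groups overlapped in each, and probe 6206 had 1 array (number 15) running steeply the other way. The line of number 3 also runs the other way for probe 2728, whose difference there was 0.02 before quantile normalization.

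The largest average difference was that of unnamed probe 6206. Its level was 4.23, 7.70 and 9.25 (lowest, median and highest) over 14 altered samples, against 1.59, 4.06 and 8.06 over 14 ambient samples. The difference averaged 3.29 ± 2.49 (SD, n = 14 arrays) and reached 5.90 on number 4. On number 15 it was -3.69, the lowest value among the 35 probes: the altered sample of that array was the lowest altered sample, and its ambient sample was the highest ambient one. On number 15 the 32 probes with a difference had a median of 1.32, and 31 of them were above 0. Of the 14 ambient levels of probe 6206, 10 lay below the 5th percentile of all values (4.98), and the files carry no flag for spots at background. Its fitted change was 3.45 (10.9-fold), and 2.35 (5.11-fold) with all values below that percentile raised to it, so dim values set part of its size.

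Another 4 unnamed probes differed by over 2 log2 units. Probe 3189 averaged 2.21 ± 1.73 and probe 2026 averaged 2.16 ± 1.42 (SD, n = 14 arrays each). Probe 12041 averaged 2.06 ± 1.77 and probe 3987 averaged 2.04 ± 1.62 (SD, n = 15 arrays each). All 4 shared the same exception, number 10, where they stood at -0.43, -0.22, -2.30 and -1.81 in that order. Of their ambient levels, 3 of 14, 5 of 14, 6 of 15 and 5 of 15 lay below the 5th percentile of all values. With values below it raised to it, their fitted changes were 2.04, 2.04, 2.03 and 1.94, against 2.38, 2.46, 2.48 and 2.20. Next in size were probes 8114 (1.95 ± 1.58, n = 15), 6768 (1.77 ± 0.93, n = 14), 1841 (1.59 ± 1.25, n = 15), 2728 (1.57 ± 1.14, n = 14) and 6644 (1.55 ± 1.06, n = 16; all SD over arrays). Of these, probes 8114 and 6768 had 6 of 15 and 4 of 14 ambient levels below that percentile. Raising such values to it took their fitted changes from 2.24 to 1.76 and from 1.79 to 1.53. The others had at most 1 such level.

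Probe 6644 was measured on all 16 arrays and had more altered samples above every ambient one than any other of the 35. Its level was 7.22, 8.53 and 10.14 (lowest, median and highest) over 16 altered samples, and 5.13, 6.87 and 8.28 over 16 ambient samples. The groups overlapped, with 12 altered samples above every ambient one and 11 ambient samples below every altered one. Only number 2 fell below 0, at -0.15, and after within-array loess all 16 arrays were above 0 (1.44 ± 0.51, SD, n = 16). The other 3 probes with a difference on every array were 7658 (1.14 ± 1.13), 10256 (1.11 ± 0.81) and 1837 (0.94 ± 0.84, SD, n = 16 each).

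The brightest of the 35 was probe 1841, at a median of 9.18 over 16 altered samples and 7.80 over 15 ambient samples. It was followed in mean level by probes 6644, 2728, 7658 and 10347. Probe 10347 had medians of 8.20 in altered and 6.69 in ambient samples and a 2.83-fold average difference over 15 arrays. Probes 1837 and 1841 were the only neighbours within 5 probe numbers of each other, and whether probe number reflects the place on the array is not stated in the sources used here.

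Of the 35, 6 were above 0 in every array that measured them, with a median average difference of 1.31, against 1.37 for the 29 with 1 exception. One of the 6, probe 751, varied least: 0.93 ± 0.39 (SD, n = 14 arrays), from 0.17 (number 10) to 1.48 (number 4). The SD over arrays ran from 0.39 to 2.49 among the 35, with a median of 1.11. Their average differences ran from 0.43 to 3.29 with a median of 1.37 (2.58-fold), against a median of -0.03 over the 2518 probes. An average above 1 log2 unit was reached by 87 of the 2518 probes, of which 27 were among the 35 and 60 were not. Choosing differences above 0 on nearly every array favours such averages.

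Just inside the limit, probe 1983 averaged 0.43 ± 0.77 (SD, n = 15 arrays) and probe 6174 averaged 0.52 ± 0.55 (SD, n = 14 arrays). Just outside the limit on exceptions, 50 probes had exactly 2, with a median average difference of 0.99 (0.42 to 2.70). Among these, probe 8896 of LOC541913 (2.70 ± 1.87, above 0 in 12 of 14 arrays) and unnamed probe 8106 (2.17 ± 1.79, 13 of 15) averaged over 2 log2 units. A further 4 probes were above 0 in all of 13 arrays and missed the limit by the number of arrays alone.

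**Figure D2:**
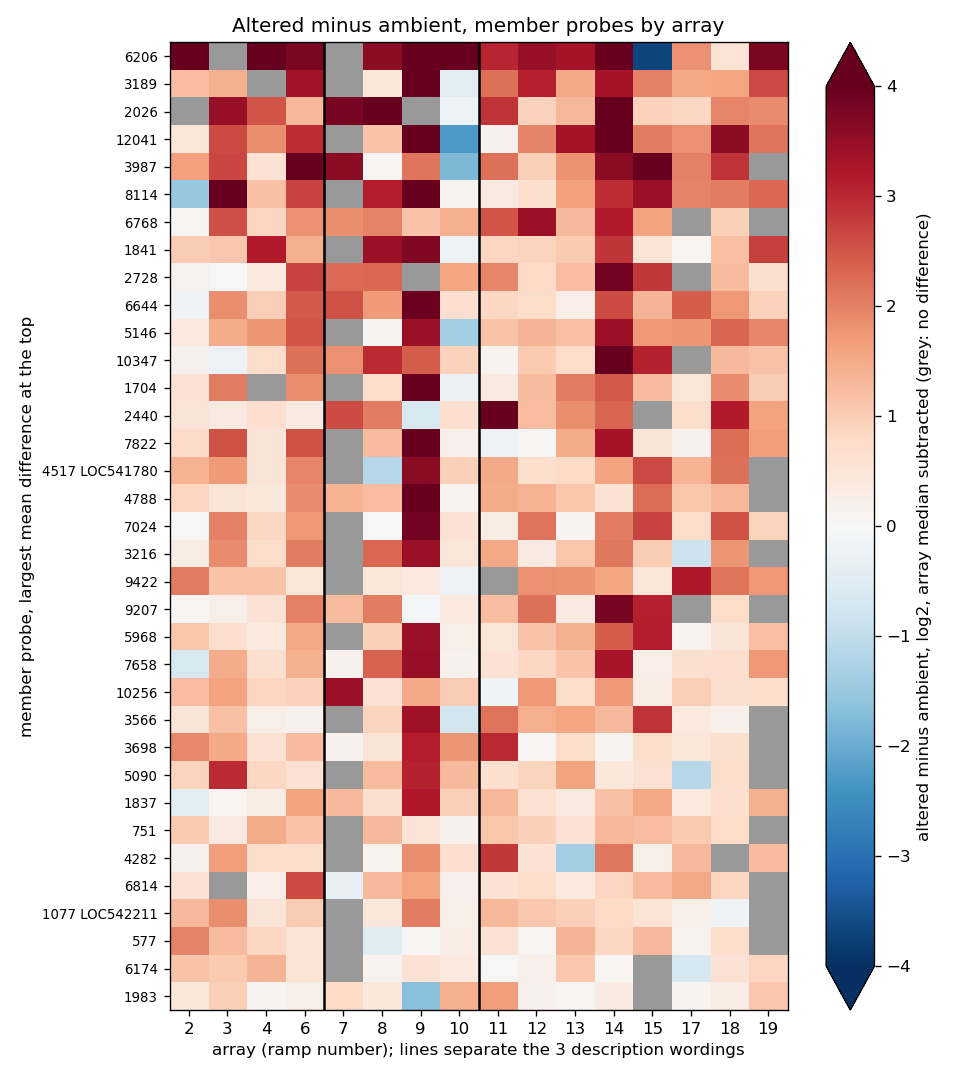
Centred log2 difference, altered minus ambient, for the 35 probes (down, largest average at the top) and the 16 arrays (across, by ramp number); colours saturate at 4 log2 units and grey marks a missing difference. Blue cells are the 29 exceptions, 9 of them on number 10, and number 9 holds many of the darkest red cells.

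The 35 probes gave 511 differences over the 16 arrays, of which 482 were above 0, as the choice requires. The 29 exceptions were unevenly spread: 9 fell on number 10, 4 on number 2, 3 each on numbers 8, 9 and 17, and none on numbers 4, 6, 12, 14 and 19. Their median was -0.50, and 9 were below -1. Numbers 7 and 19, with the fewest spots, gave a difference for 15 and 22 of the 35. The median difference of the 35 was lowest on number 10 (0.31) and number 2 (0.59) and highest on number 9 (3.19) and number 14 (2.33).

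Subtracting the median over all spots did not put the widely measured probes at 0 on every array. Of probes with differences on at least 13 other arrays, the share above 0 was 18.7% on number 2, 23.9% on number 11, 24.7% on number 13 and 28.8% on number 10. It was 69.6% on number 9, 74.2% on number 14 and 78.6% on number 3. The median difference of these probes was highest on number 9, at 1.15.

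Under altered rainfall the mean levels of the 35 probes had a median of 7.53, close to that of the 2518 probes (7.54). The next values describe the 35 and support nothing, since choosing on altered minus ambient favours low ambient values in these samples. Under ambient rainfall the median was 6.09 against 7.47, and all 35 lay below the ambient median of the 2518, whereas 18 did so under altered rainfall. Ordered by mean level over all samples, and split into 4 bins of like size, the 2518 probes had 22 of the 35 in the dimmest bin, 9 and 4 in the next bins, and 0 in the brightest. The median average difference of all probes in those bins was 0.12, 0.08, -0.04 and -0.20 from dim to bright, and its part in the choice was not tested. As a description too, the SD between samples was larger under ambient rainfall for 28 of the 35 probes (80%) and for 46.9% of the 2518. Altered samples had 0 and ambient samples 3 intensities of exactly 0 among the 35, which gave no difference. Over all 10447 probes such intensities numbered 773 in altered and 736 in ambient samples.

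Within-array loess removes the dependence of a difference on intensity, and it changed the list more than the sizes. With loess the 35 averaged 1.11 log2 units at the median (0.03 to 3.06), and 21 stayed at 1 or above. The same choice made on loess ratios gave 80 probes, of which 20 were among the 35 (57.1% of the 35 and 25% of the 80). Those 80 were spread over the bins of intensity as 14, 21, 21 and 24, from dim to bright. The choice made on differences of quantile-normalized values gave 102 probes, 27 of them among the 35 (77.1% and 26.5%). In all, 18 of the 35 were also chosen with quantile normalization, with loess and with log2(value + 1). They include probe 4517 of LOC541780 and probes 6206, 3189, 2026, 12041, 1841, 2728 and 6644. Probe 1077 of LOC542211 was not chosen with loess (above 0 in 12 of 14 arrays, mean 0.63).

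**Figure D3:**
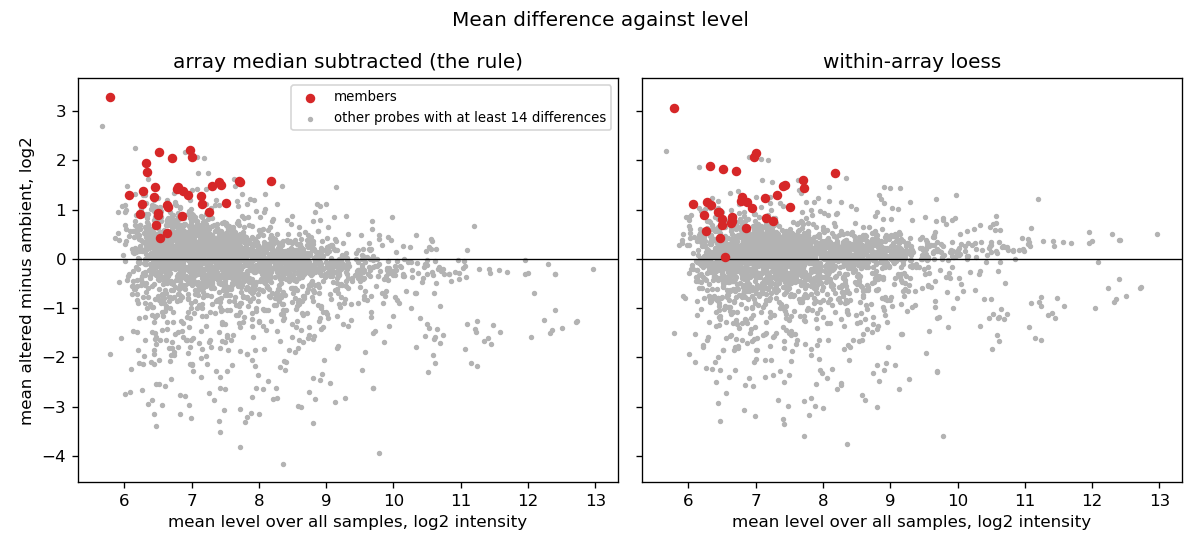
Mean altered minus ambient difference (log2) against mean level (log2 intensity, quantile-normalized) for the 2518 probes with at least 14 differences, with the array's median subtracted (left) and after within-array loess (right); red points are the same 35 probes in both panels. The red points sit at the dim side, with none in the brightest bin (8.34 and above), and remain above 0 on average with loess.

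In the fit over all probes (limma, altered against ambient, quantile-normalized), 258 of 6384 probes were called higher (4.04%). Either direction together, 576 were called (9.02%), and among the 2518 probes 105 were called higher (4.17%). Of the 35 probes 31 were called higher, which follows from the choice, and the median fitted change was 1.42 against 0.10 over all probes tested. The 35 fitted changes ran from 0.37 to 3.45. With median centring 158 probes were called higher, with 27 of the 35 among them. Rises made up 44.8% of calls, 32.8% under median centring and 75.5% on unnormalized values, whose median over all probes was 0.57.

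Probes chosen on some arrays can be read on arrays that took no part in that choice. For this the study was divided into the 8 arrays of numbers 2 to 10 and the 8 arrays of numbers 11 to 19. The choice on 8 arrays finds other probes than the choice on all 16, so this reading is no test of the 35. In numbers 2 to 10, 54 probes were above 0 on every array that measured them (at least 7 of 8), and 52 could be tested in numbers 11 to 19. There 43 of the 52 had a change above 0 (82.7%, against 51.9% of all probes), with a median of 0.47, and 5 were called higher (limma, 9.62%, against 110 of 5793 or 1.9% of all). In the other direction 59 probes were chosen in numbers 11 to 19, and 56 had a change above 0 in numbers 2 to 10 (94.9%, against 55.9% of all). Their median change was 1.06, and 3 were called higher (limma, 5.08%, against 32 of 7641 or 0.419% of all). At an unadjusted p under 0.05, 14 of the 52 and 28 of the 59 were higher (26.9% and 47.5%, against 8.1% and 6.75% of all). Of the 35 probes, 13 were among the 54 and 25 among the 59. The shares of all probes include probes of every level and probes measured on fewer arrays than the chosen ones had to be, so they are not a matched comparison. A dependence on intensity or dye common to both sets of arrays would recur in both readings, and this was not tested.

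Sample descriptions have 3 wordings, which follow numbers 2 to 6, 7 to 10 and 11 to 19, and what the wordings stand for is not given. The median over the 35 of the average difference was 1.17 in numbers 2 to 6, 1.52 in numbers 7 to 10 and 1.35 in numbers 11 to 19. The lowest average of a probe in a set was -0.05, that of probe 577 in numbers 7 to 10. Numbers 7 to 10 held 16 of the 29 exceptions. A dependence of the difference on the set was tested over all probes, but the 35 were chosen for 1 sign on these same arrays, which works against finding it among them, so their values are a description. None of the 35 passed (limma, moderated F-test, 0 with adjusted p under 0.05, lowest 0.63). Over all probes 5 of 6124 passed (0.0816%). At an unadjusted p under 0.05 there were 2 of the 35 (5.71%), against 443 of all probes (7.23%). With the replicate block 0 of all probes passed, and 1 of the 35 (2.86%) had an unadjusted p under 0.05, against 352 of all (5.75%).

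Levels among ambient samples, which enter the choice as a term of each difference, were also compared between the sets. None of the 35 passed, nor did any of 6225 probes (limma, moderated F-test, 0%), and the lowest adjusted p among the 35 was 0.44, for probes 2440 and 10347. At an unadjusted p under 0.05 there were 4 of the 35 (11.4%) and 523 of all probes (8.4%). Across ambient samples the levels of the 35 correlated at a median r of 0.32 over 595 pairs of probes, against 0.25 for pairs of the 2518 probes. Across altered samples the values were 0.28 and 0.25. All pairs share the same arrays, and probes are not replicates.

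In the deposited intensities each array but 1 had a channel that did not hold whole numbers (to within 1e-06): the altered one on 11 arrays and the ambient one on 4. The median over the 35 of the average difference was 1.35 on the 11 arrays and 1.10 on the 4. The choice fixed the sign on nearly all arrays, so only these sizes are given. Over all 2518 probes the median averages were 0.11 and -0.45 on those arrays. The labels name no dye, so whether dyes were exchanged between altered and ambient samples is unknown.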

How the data were processed

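Leaf RNA of 32 samples was measured on arrays read in 2 channels. The authors deposited linear spot intensities, and no label or header says by which scanner, background correction or scaling they were made. Intensities of 0 were set missing and the rest taken as log2. Groups and ramp numbers came from the titles. For levels and fits the values were quantile-normalized between samples, and probes with at least 8 values in each group were tested with limma 3.58.1 (R 4.3.3; lmFit, eBayes, two-sided, Benjamini-Hochberg over all probes tested, threshold 0.05). The change is altered minus ambient. The F-tests needed at least 2 values per group and wording. Loess used a span of 0.4. Scripts were tested on simulated data. Precision is limited by the number of arrays and by missing spots.

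The 35 probes, the comparisons and the alternatives were chosen with earlier results of these data known, and the reading on 8 left-out arrays was added after seeing the data. Named in the text are all probes among the 35 with a symbol and their other probes, the 10 unnamed with the largest average and the 5 unnamed with the highest level. Also named are the 2 of the 35 with the smallest average, the 2 probes with 2 exceptions and the largest average, and the leaf markers Cab-m7 and pgr5. Probes 751, 10256, 1837, 577 and 2440 were named after their values were seen. Gene symbols came from the platform annotation, with 728 probes having 1 symbol and 9719 none.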

Additional observations from a re-analysis of the deposited data

How the results depend on the processing

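The number of probes chosen depended on the centring and on the limits: 251 without subtracting a median (31 of the 35 among them), 102 on quantile-normalized values, 80 with loess, 70 with at least 12 arrays, 6 with no exception, 84 with up to 2, and 54 and 59 on 8 arrays alone (numbers 2 to 10 and 11 to 19). Leaving out 1 number gave 36 to 63, and only without number 10 (63) was the count over 1.5 times as large. All held the 35 by construction, since the limit on arrays was lowered with it (18 of the 35 had exactly 14 differences). The part of that looser limit in the higher counts was not tested. Over all probes 576 were called, against 343 without normalization and 321 with at least 14 values in each group (fewer tested), 588 with the replicate block and 456 to 619 without 1 number. Calls of higher probes were 258, against 158 with median centring, 121 with at least 14 values, 281 with the replicate block and 202 to 279 without 1 number. The median change of the 35, 1.42, was 1.11 with loess, 1.91 without normalization and 1.29 without numbers 7, 9 and 19, and all 35 stayed above 0 in these. The interaction count of 5 was 0 with the replicate block, 3 with median centring and 1 to 8 without 1 number: 2 without number 11, 3 without 13, 8 without 14, 1 without 15 and 3 without 17. Ambient levels by set gave 0, and 0 to 3 without 1 number (3 without number 6, 1 without 15). Where no cause is named, the cause was not tested. Samples of 1 number deviated together from their group means (r from -0.12 to 0.73 over 894 probes, above 0.1 for 14 of 16 numbers, not for 7 and 10), and 12 of 16 altered samples correlated best with the ambient sample of their own number. The fall of probe 4707 of Cab-m7 (-0.88, limma, adjusted p = 0.012) did not pass without normalization (0.21) or without numbers 7, 9 and 19 (0.068). Probe 3766 of that gene (-0.15, limma, adjusted p = 0.85) and pgr5 (-0.63, 0.40) did not pass. Among probes named in the text, the change moved by over 1.5-fold for 6206 with the floor at the 5th percentile (2.35 against 3.45 log2 units). It did so for 2026 with loess (1.82 against 2.46), and for 6768 with loess (1.09 against 1.79) and without normalization (2.49). For 8896 it did so with the floor (1.86 against 2.88) and with loess (2.19), and for 1983 without normalization (1.04 against 0.37). The change of probe 4707 moved as much with median centring (-1.53 against -0.88). That of probe 3766 did so without normalization (0.66 against -0.15).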
